A study of Rattus with 27 samples.

Results

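The spleens of rats labelled vehicle were compared with the spleens of rats labelled model, both taken 6 h after surgical blockage of a brain artery. The comparison rests on 6 of the 27 arrays of the series, those titled vehicle 2, 4 and 5 and model 1, 2 and 3 in spleen. All animals were Sprague Dawley rats, 9 in all, and each gave brain, white blood cells and spleen to 1 array apiece. The operated rats underwent middle cerebral artery occlusion (MCAO), a model of ischaemic stroke. The sham rats were anaesthetized and had the vessel separated only, and their 3 spleens enter the fit as a further group. Spleen tissue was homogenized whole, and neither age nor the date of hybridization is given in the labels, and a batch and a group cannot be told apart.

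What set the groups apart is only partly known. The series is about a herbal preparation, Yiqi Jiedu (YJ). Its protocol lists sham, a vehicle control and YJ at 25 mg/kg, whereas the samples are titled model and vehicle, and nothing ties the 2 namings together. The groups are therefore called model-labelled and vehicle-labelled, and a difference between them is not read as an effect of YJ. Differences are vehicle-labelled minus model-labelled on the log2 scale, where 1 is a 2-fold difference, and ± gives the standard error from limma (n = 3 per group). A negative value means lower in vehicle-labelled spleens.

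The spleen stores and filters blood. Its white pulp holds B cell follicles and T cell zones organized by stromal chemokines, and its red pulp holds macrophages that take up worn red cells and recycle their iron. In rodents the red pulp also makes red cells and platelets. Stroke is known to alter the spleen through adrenal hormones and sympathetic nerves, with loss of lymphocytes and release of myeloid cells as the usual description.

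The tissue label was borne out by Vcam1 and Snap25, but not by every marker looked at. Vcam1, an adhesion molecule of red pulp macrophages and stroma, read 10.25 to 10.96 in the 9 spleens, 6.89 to 7.83 in brain and 3.85 to 4.52 in white blood cells. The neuronal gene Snap25 read 3.50 to 3.84 in spleen and 11.72 to 12.47 in brain. Marco, from the macrophage list, overlapped between tissues. It read 4.94 to 6.01 in spleen, 4.99 to 5.48 in white blood cells and 4.64 to 5.22 in brain. Array medians over all probes lay between 5.09 and 5.31 in spleen, and r between spleen arrays, taken across genes, was 0.975 to 0.993.

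A pair of vehicle-labelled spleens stood apart from each other. The lowest correlation of any pair of spleen arrays, 0.975, was that of vehicle-labelled rats 4 and 5. Vehicle-labelled rat 5 correlated at 0.991, 0.987 and 0.989 with model-labelled rats 1, 2 and 3, and at 0.984 and 0.975 with rats 2 and 4 of its own group. The median SD of a gene was 0.20 in the vehicle-labelled group, 0.14 in the model-labelled group and 0.13 in sham. Where a call, a named value or a list median turned on 1 of these arrays or another spleen, the value without it is given beside it or with the results without rat 5.

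Of 14506 genes tested, limma called 0 at an adjusted p under 0.05 (0% of genes), and the smallest adjusted p was 0.156. At an unadjusted p under 0.05 there were 1872 genes (12.9%). Of these, 1443 were lower (9.95% of genes) and 429 higher (2.96%) in vehicle-labelled spleens. The values of the 2 groups did not overlap for 1622 genes with vehicle-labelled below (11.2%) and 507 with vehicle-labelled above (3.5%). The lower side thus held 77.1% of the genes with small p, although the median difference over all genes was -0.02, with 53.4% of genes below 0 and 45.9% above. That share was 61.7% without vehicle-labelled rat 5, 61.8% without rat 4, 61.9% without model-labelled rat 2 and 55.1% with array weights. It was 84.2% without vehicle-labelled rat 2 and 85.3% without model-labelled rat 1. Differences of at least 2-fold were seen for 31 genes, 11 lower and 20 higher. The median standard error was 0.15.

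Leaving out single spleens changed this count for vehicle-labelled rat 5 and sham rat 5. Without vehicle-labelled rat 5, 317 genes passed (2.19%), 226 lower and 91 higher. Without sham rat 5, 2 genes passed, and with any other single spleen left out, none. A fit of only the 6 spleens gave 1 gene, and a fit of all 27 arrays, which takes the spread of each gene from the 3 tissues together, gave 107 (0.738%), 93 lower (0.641%) and 14 higher (0.0965%). Of the 317 genes, 66 were among those 107.

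**Figure D1:**
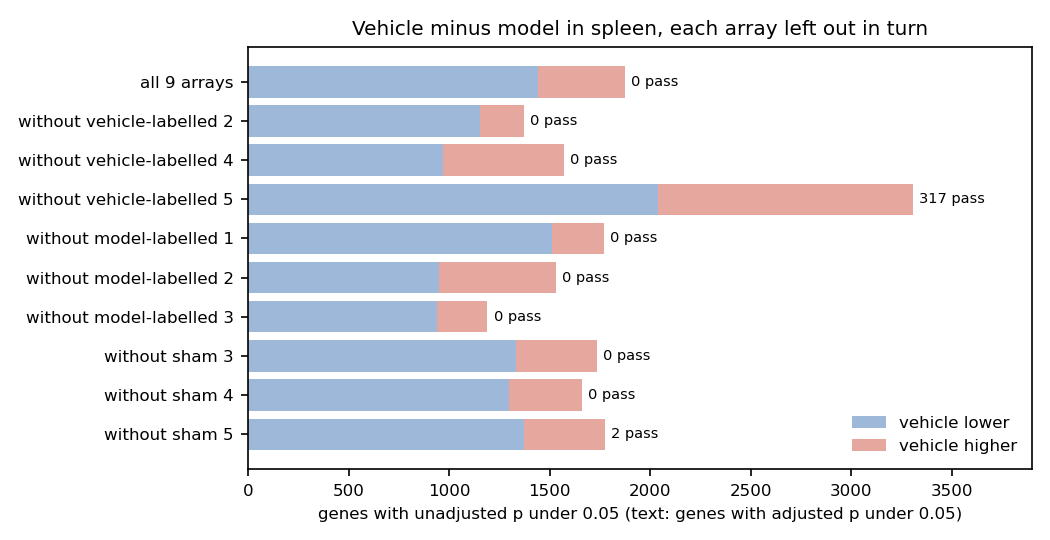
Number of genes (horizontal axis) with an unadjusted p under 0.05 for vehicle-labelled minus model-labelled spleen in limma, with all 9 spleen arrays and with each left out in turn; blue is lower and red higher in vehicle-labelled spleens, and the printed number counts genes with an adjusted p under 0.05. The bar without vehicle-labelled 5 reaches 3309 genes against 1872 with all arrays, and it alone has 317 that pass.

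The lower genes with the smallest p included a subunit of the adrenomedullin receptor, a regulator of cell shape and a cytokine of the TGF-beta family, which had the largest difference of the 12. Tgfb3, the cytokine (probe 10891303), read 4.75, 4.92 and 4.75 in vehicle-labelled rats 2, 4 and 5 and 6.49, 6.21 and 7.34 in model-labelled rats 1, 2 and 3. Sham rats 3, 4 and 5 read 4.76, 4.97 and 6.10. All vehicle-labelled spleens lay below all model-labelled ones, and a pair of sham spleens sat at the vehicle-labelled level. The difference was -1.87 ± 0.33 (95% interval -2.58 to -1.17, adjusted p = 0.167), a 3.66-fold lower level. With single spleens left out it ran from -2.11 to -1.54 with an adjusted p from 0.0412 to 0.481, passing without vehicle-labelled rat 5 and without sham rat 5 (adjusted p = 0.0415).

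Ramp2, which pairs with the calcitonin receptor-like receptor to bind adrenomedullin, had the smallest p of all genes (probe 10738341). It read 7.62, 7.66 and 7.63 in vehicle-labelled and 8.41, 8.53 and 8.70 in model-labelled spleens, with sham at 7.65, 7.92 and 8.06. The vehicle-labelled values lay close together and below every model-labelled value, and the lowest sham value lay among them. The difference was -0.91 ± 0.14 (95% interval -1.20 to -0.62, adjusted p = 0.156). Shroom3, an actin-binding protein that shapes epithelial cells, read 4.22, 4.43 and 4.28 against 5.32, 4.98 and 5.26, a difference of -0.88 ± 0.13 with the same adjusted p.

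Immune and stress genes followed. Tnf, the inflammatory cytokine, stood at 4.48, 4.32 and 4.45 with the vehicle label, at 5.39, 5.35 and 5.03 with the model label and at 5.40, 5.35 and 4.92 in sham. Its model-labelled and sham values overlapped, and the vehicle-labelled spleens lay below both. The difference was -0.84 ± 0.15 (adjusted p = 0.167). Ada, the enzyme that clears adenosine, had a like arrangement, at 5.32, 5.45 and 5.53 against 5.99, 6.27 and 6.35, with sham at 6.03, 6.26 and 5.97 (difference -0.77 ± 0.14). Txnip, an inhibitor of thioredoxin induced by glucose and glucocorticoids, read 9.69, 9.74 and 9.97 against 10.39, 10.68 and 10.79, a difference of -0.82 ± 0.15.

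Bhlhe40, a repressor tied to the circadian clock, read 7.77, 7.72 and 7.73 in vehicle-labelled and 8.42, 8.41 and 8.79 in model-labelled spleens (difference -0.80 ± 0.15). For Cd81, a tetraspanin of the B cell co-receptor, the values were 9.66, 9.54 and 9.61 against 10.24, 10.20 and 10.52 (difference -0.72 ± 0.13). Tpp1, a lysosomal peptidase, stood at 8.66, 8.83 and 8.87 against 9.38, 9.61 and 9.88 (difference -0.84 ± 0.15). In each of these 3 genes the groups did not overlap. The other 3 named genes of this side were Irf2bpl (-0.93), Fam168a (-0.74) and Bicra, a subunit of a SWI/SNF chromatin remodeller (-0.87). Over all 12, the adjusted p lay between 0.156 and 0.167, and the sham mean lay between the other 2 group means in 12 of 12. These genes were chosen for a gap between those 2 groups, so the place of sham is a description.

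On the higher side the gene with the smallest p was Serpinb10, a protease inhibitor of blood-forming cells (probe 10763375). It read 9.06, 9.21 and 9.42 in vehicle-labelled and 8.08, 6.97 and 7.63 in model-labelled spleens, with sham at 7.90, 8.82 and 8.96. The vehicle-labelled spleens lay above all 6 others, and the model-labelled and sham spleens overlapped. The difference was 1.67 ± 0.29 (95% interval 1.04 to 2.30, adjusted p = 0.167), a 3.18-fold higher level, and from 1.38 to 1.93 with single spleens left out (adjusted p from 0.0434 to 0.481, the lowest without vehicle-labelled rat 5).

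Products of platelets and mast cells stood among the same genes. Ppbp, a chemokine precursor stored in platelets, read 10.96, 11.53 and 11.02 against 10.15, 9.72 and 9.71, while sham ran from 9.72 to 11.01 (difference 1.31 ± 0.28, adjusted p = 0.181). Mcpt9, a mast cell protease, read 6.23, 6.27 and 6.14 against 4.94, 3.97 and 5.32, with sham at 5.49, 6.85 and 5.68 (difference 1.47 ± 0.35, adjusted p = 0.181). Sham spleens overlapped the vehicle-labelled range in both genes.

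Genes of DNA synthesis and genome upkeep made up a further group. Terc, the RNA of telomerase, read 7.01, 7.18 and 6.23 against 5.80, 5.76 and 5.61 (difference 1.08 ± 0.21), and rat 5 was the lowest of the vehicle-labelled spleens. Fam111a, a protease acting at replication forks, read 7.91, 7.56 and 6.78 against 6.36, 6.48 and 6.39 (difference 1.01 ± 0.24), again with rat 5 the lowest of the vehicle-labelled spleens. Gen1, a nuclease that resolves recombination junctions, differed by 0.81 ± 0.17, and Dtymk, a kinase of thymidine nucleotide synthesis, by 0.63 ± 0.14. The remaining 5 were Pdcd5 (0.68), Zfp37 (0.59), Cidec, a lipid droplet protein of fat cells (0.69), Cox7b, a subunit of cytochrome c oxidase (0.57), and Ciao2a, of iron-sulfur cluster assembly (0.73). Adjusted p-values of the 12 higher genes lay between 0.167 and 0.181, and the sham mean lay between the other 2 in 11 of 12, the exception being Fam111a. The place of sham is a description here too.

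**Figure D2:**
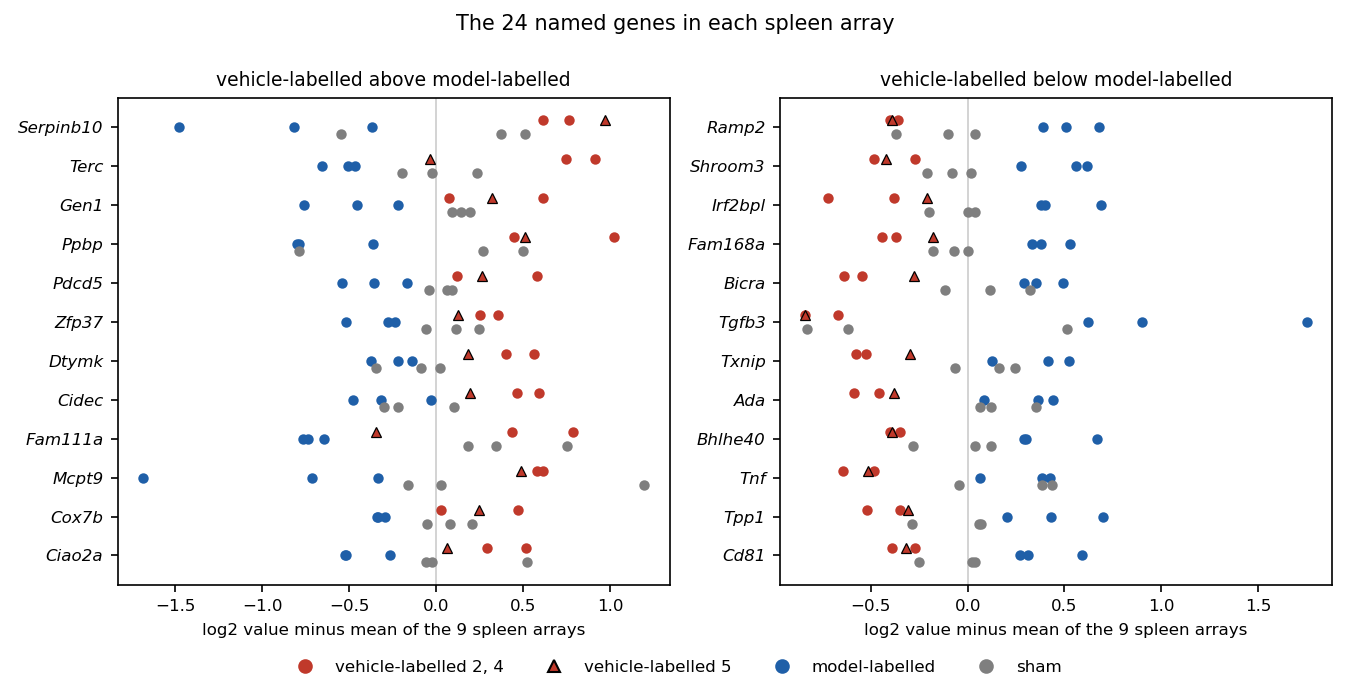
The 24 named genes in each of the 9 spleen arrays, as log2 value minus the mean of the 9 arrays (horizontal axis); vehicle-labelled spleens are red, with a triangle for rat 5, model-labelled blue and sham grey. Red and blue points do not overlap in any row, which the choice of these genes requires, and the triangle for Terc and Fam111a lies nearest to the blue points.

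For a view by pathway and cell type, 40 gene lists were described by the number of members with an unadjusted p under 0.05, to be read against 9.95% lower and 2.96% higher over all genes, and by their median difference, against -0.02. Where leaving out 1 spleen moved a median by over 1.5 times, the value without it stands beside it or the direction is not read. The lists held 731 distinct measured genes, of which 0 passed in limma (smallest adjusted p = 0.167). Medians were negative in 26 lists and positive in 14. In a homogenate, fewer cells of a type and less RNA per cell cannot be told apart. To show single spleens, a list score was taken as the mean over its genes of the log2 value minus the 9-spleen mean.

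**Figure D3:**
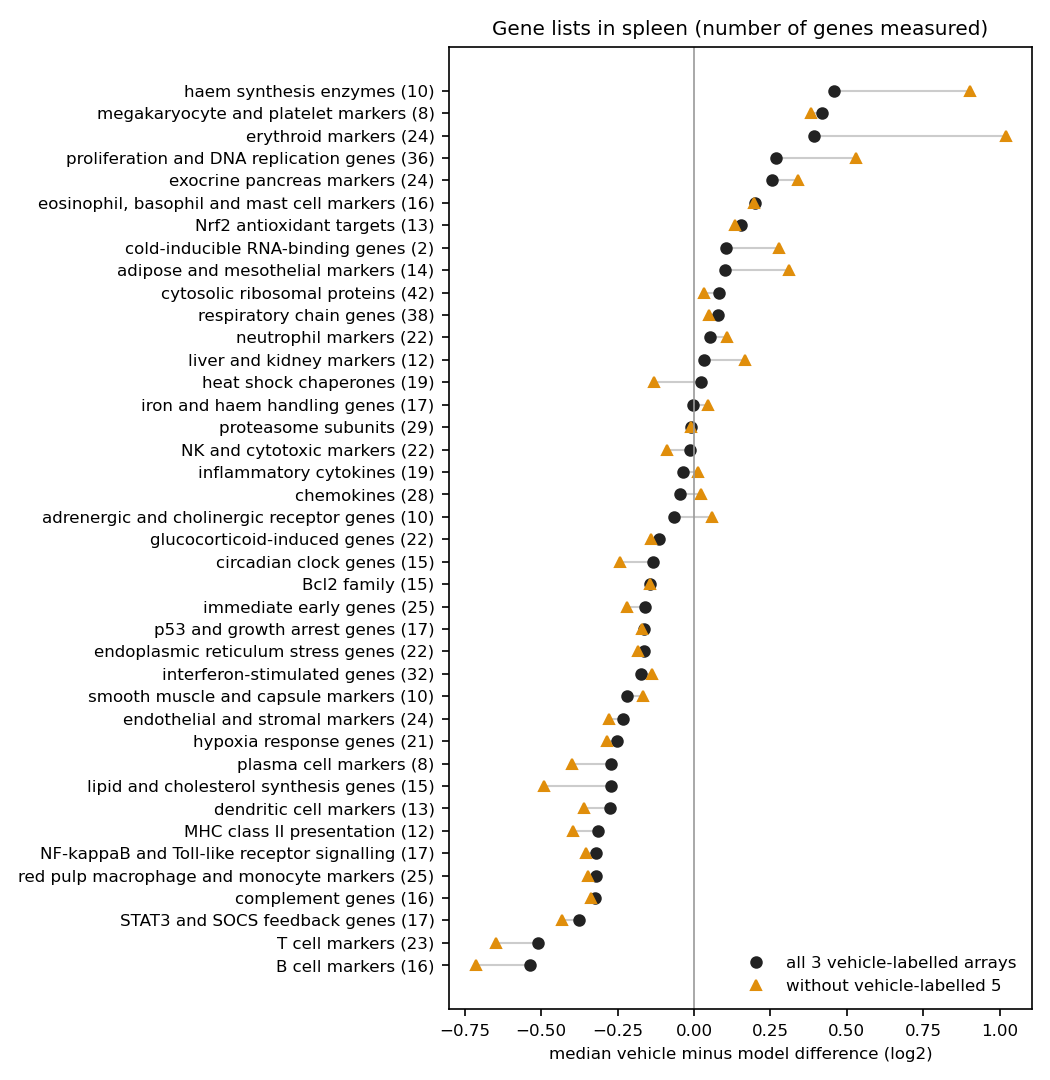
Median vehicle-labelled minus model-labelled difference (log2, horizontal axis) over the measured genes of each of 40 lists, with all arrays (black circles) and without vehicle-labelled rat 5 (orange triangles). B and T cell markers have the lowest medians, and erythroid markers and haem synthesis enzymes move most when rat 5 is left out, to 1.02 and 0.90.

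Lymphocyte markers had the lowest medians. Of 16 B cell markers 9 had a p under 0.05, all lower, and 15 of 16 differences were negative, with a median of -0.54. Cd37, a tetraspanin of mature B cells, read 9.52, 8.92 and 9.73 in vehicle-labelled and 10.40, 10.57 and 10.23 in model-labelled spleens (difference -1.01 ± 0.20, adjusted p = 0.167). Cxcr5, the receptor that guides B cells into follicles, read 7.92, 6.89 and 8.12 against 8.46, 8.66 and 8.48 (-0.89 ± 0.26, and -0.51 without rat 4), and Fcmr, the IgM receptor, differed by -0.52 ± 0.16. The groups did not overlap in these genes, and rat 4 was the lowest spleen in each. Among the defining markers Ms4a1, which encodes CD20, lay at -0.07 ± 0.23 (0.25 without rat 4) and Cd79b, of the B cell receptor, at -0.40 ± 0.20 (-0.17 without rat 4), so that members of the list differed.

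T cell markers showed the same arrangement by animal. Of 23 genes, 22 had a negative difference and 6 a p under 0.05, with a median of -0.51. Tcf7, a transcription factor of naive T cells, read 7.77, 6.99 and 8.31 against 8.69, 8.53 and 8.50 (-0.88 ± 0.31), and Cd3e, of the T cell receptor complex, 8.17, 7.18 and 8.74 against 8.88, 8.72 and 8.84 (-0.78 ± 0.31). Without rat 4 the differences were -0.53 and -0.36. The second gene overlapped between groups, since rat 5 lay at the model-labelled level. List scores were -0.12, -0.74 and 0.22 in vehicle-labelled rats 2, 4 and 5, 0.26, 0.19 and 0.22 in model-labelled rats and 0.35, -0.02 and -0.36 in sham. For B cell markers they were -0.14, -0.74 and 0.13 against 0.27, 0.26 and 0.19, with sham from -0.10 to 0.20. Rat 4 thus carried the lowest lymphocyte scores, and rat 5 lay with the model-labelled spleens or close to them. Without rat 4 the median was -0.29 for B cells and -0.15 for T cells, and without rat 5 -0.71 and -0.65.

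Antigen presentation genes stood lower as well. Of 12 MHC class II genes 11 had a negative difference and 6 a p under 0.05, with a median of -0.32. RT1-DMb, which loads peptides, read 8.45, 8.31 and 8.55 against 8.88, 9.10 and 8.88 (-0.52 ± 0.12, adjusted p = 0.181). Cd74, the invariant chain, read 11.94, 11.93 and 12.10 against 12.39, 12.24 and 12.43 (-0.36 ± 0.13). Neither gene overlapped between the groups. Of 13 dendritic cell markers 2 had a p under 0.05, both lower, Tcf4 (-0.50 ± 0.14) and Xcr1, the chemokine receptor of cross-presenting cells (-1.04 ± 0.36, with rat 4 lowest at 4.83 and a difference of -0.52 without it). Their median was -0.27, and -0.11 without rat 4. Plasma cell markers had a median of -0.27 with 1 of 8 under 0.05 (-0.18 without rat 4), and 22 natural killer and cytotoxic genes a median of -0.01 (from -0.09 to 0.14) with 2 lower.

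Macrophage markers were mixed. Of 25 red pulp macrophage and monocyte markers 9 were lower and 2 higher at p under 0.05, with a median of -0.32. Siglec1, a sialic acid receptor of marginal metallophilic macrophages, read 7.11, 7.09 and 7.50 in vehicle-labelled spleens, 8.61, 7.99 and 8.90 in model-labelled and 8.49, 8.06 and 7.56 in sham. The vehicle-labelled spleens were the 3 lowest, and the difference was -1.27 ± 0.25 (adjusted p = 0.167). Cd163, the scavenger receptor for haemoglobin, read 8.61, 9.76 and 9.10 against 9.70, 9.86 and 9.94 (-0.68 ± 0.24), with rat 4 inside the model-labelled range, and a difference of -0.40 without rat 2. Spic, the transcription factor that specifies red pulp macrophages, went the other way, at 5.58, 5.85 and 4.40 against 3.96, 4.72 and 4.50 (0.88 ± 0.30). Rat 5 lay within the model-labelled range, and the difference was 1.32 without it, which passed (adjusted p = 0.0214), and 0.60 without rat 4.

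Stromal and vascular genes included the chemokine of the T cell zone. Ccl19 read 6.35, 5.77 and 6.59 in vehicle-labelled and 7.27, 7.18 and 7.46 in model-labelled spleens, and 7.50, 7.24 and 6.97 in sham (-1.07 ± 0.20, adjusted p = 0.167). All 3 vehicle-labelled values were below the 6 others. Eng, a TGF-beta co-receptor of endothelium, differed by -0.70 ± 0.15 (adjusted p = 0.181), Icam1 by -0.54 ± 0.14 and Cdh5, the endothelial cadherin, by -0.68 ± 0.20. Of the 24 endothelial and stromal markers 6 had a p under 0.05, all lower, with a median of -0.23 (-0.38 without model-labelled rat 1). Of 10 smooth muscle and capsule markers 2 did (median -0.22), Cnn1 at -0.50 ± 0.17 (-0.32 without model-labelled rat 1) and Myh11 at -0.40 ± 0.15.

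Red cell genes depended on single animals, and their median moved the most of the 40 lists when 1 spleen was left out. Of 24 erythroid markers 23 had a positive difference, but only Ahsp, the chaperone of alpha globin, had a p under 0.05. Its values were 11.67, 11.72 and 10.04 in vehicle-labelled rats 2, 4 and 5, 10.04, 10.72 and 9.39 in model-labelled rats and 10.97, 11.36 and 11.45 in sham (1.09 ± 0.41, adjusted p = 0.279). Rat 5 read the same as model-labelled rat 1. The list scores were 0.33, 0.81 and -1.14 in vehicle-labelled, -0.53, 0.17 and -0.88 in model-labelled and 0.07, 0.56 and 0.60 in sham spleens. Rat 4 had the highest score of the 9 and rat 5 the lowest. The median difference was 0.39 with all arrays, 1.02 without rat 5 and -0.04 without rat 4. It was 0.16 without rat 2, and 0.76 and 0.10 without model-labelled rats 2 and 3. The defining markers Hbb and Hbb-b1, of beta globin, and Alas2, of haem synthesis, lay at 0.06 ± 0.14, 0.16 ± 0.16 and 0.10 ± 0.37. With single spleens left out they ran from -0.043 to 0.15, from 0.038 to 0.31 and from -0.29 to 0.48.

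Haem synthesis enzymes followed the same animals. None of the 10 had a p under 0.05, and the median was 0.46, 0.90 without rat 5, 0.02 without rat 4 and 0.22 without rat 2. Without model-labelled rats 2 and 3 it was 0.69 and 0.25. Cpox, which makes protoporphyrinogen, read 9.90, 10.12 and 7.90 in vehicle-labelled and 8.52, 9.42 and 8.16 in model-labelled spleens, a difference of 0.61 that was 1.31 without rat 5 and 0.20 without rat 4. Among 17 genes of iron and haem handling 4 were lower and 1 higher at p under 0.05 (median 0.00, from -0.12 to 0.07 with single spleens left out). The iron exporter Slc40a1 was one of the lower, at 10.17, 10.80 and 10.48 against 10.66, 10.93 and 11.00 (-0.38 ± 0.16, and -0.22 without rat 2).

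Proliferation genes leaned to the higher side. Of 36 genes, 34 had a positive difference and 6 a p under 0.05, all higher, with a median of 0.27. Nusap1, a spindle protein, read 7.65, 8.44 and 7.38 against 7.17, 6.84 and 6.86 (0.87 ± 0.25, adjusted p = 0.201, and 0.56 without rat 4). Cdk1, the kinase that drives mitosis, read 6.39, 6.68 and 6.19 against 5.78, 5.94 and 5.49 (0.68 ± 0.21). The checkpoint kinase gene Bub1 differed by 0.60 ± 0.19, and in all 3 the groups did not overlap. Scores were 0.17, 0.41 and -0.54 in vehicle-labelled and -0.52, -0.03 and -0.45 in model-labelled spleens, with sham at 0.20, 0.24 and 0.52. Rat 5 was the lowest of the 9 here too. The median was 0.53 without it, 0.05 without rat 4 and 0.49 without model-labelled rat 2.

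**Figure D4:**
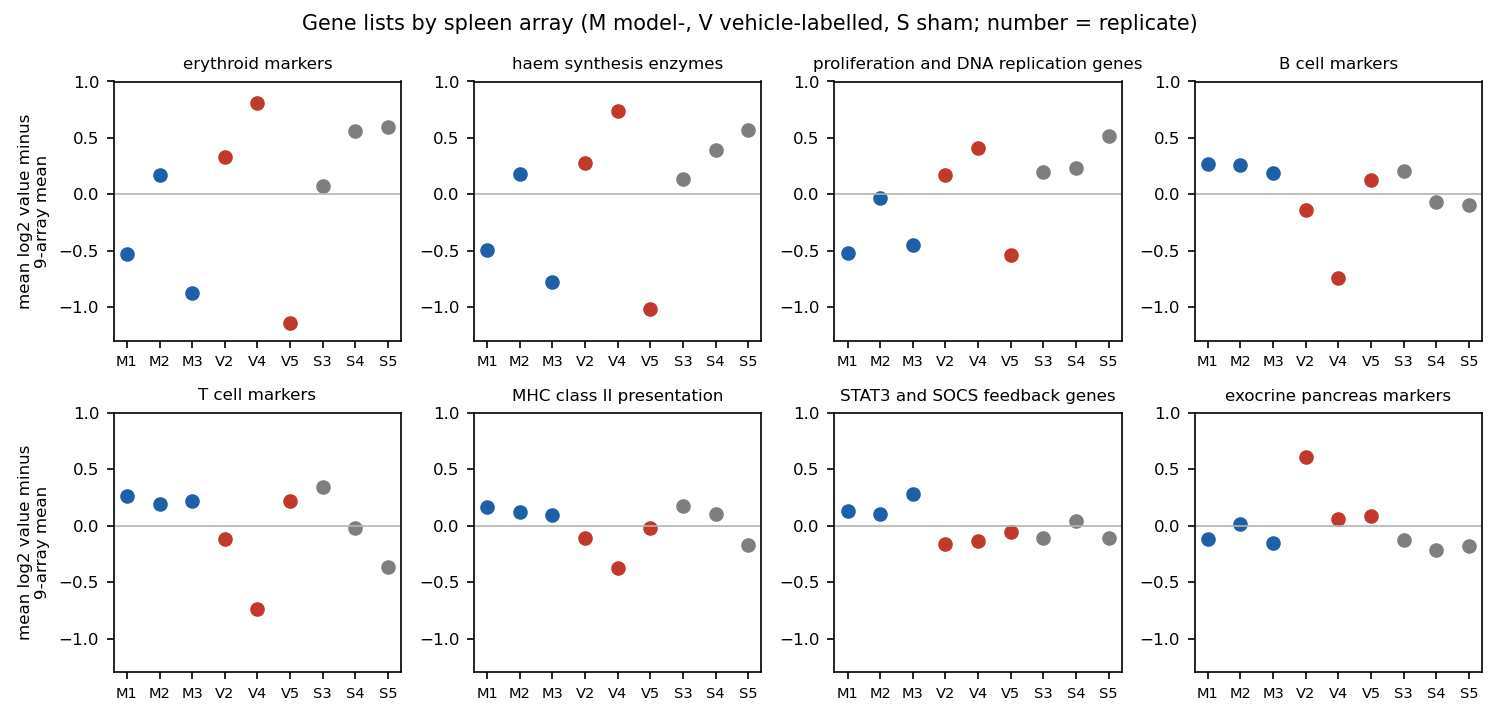
Score of 8 gene lists in each of the 9 spleens, as the mean log2 value of the list's genes minus their 9-array mean (vertical axis, same range in every panel); M is model-labelled (blue), V vehicle-labelled (red) and S sham (grey), with the rat's number. V4 and V5 lie at opposite ends for erythroid markers, at 0.81 and -1.14, and V2 alone is high for exocrine pancreas markers, at 0.61.

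Platelet markers and those of eosinophils, basophils and mast cells leaned to the higher side, and neutrophil markers were mixed. All 8 megakaryocyte and platelet markers had a positive difference, with a median of 0.42 and 2 under 0.05, Ppbp and the clotting factor subunit F13a1 (0.72 ± 0.26, and 0.43 without rat 4). The median was 0.25 without rat 4 and 0.18 without model-labelled rat 2. Platelet list scores overlapped between the labels, at -0.17, 0.61 and 0.23 in vehicle-labelled and 0.03, -0.66 and -0.18 in model-labelled spleens. Sham ran from -0.46 to 0.30. Of 16 eosinophil, basophil and mast cell markers, with a median of 0.20 (0.41 without rat 2), 15 were positive and 3 had a p under 0.05, Mcpt9, Prg2, the major basic protein of eosinophils (1.12 ± 0.36, and 0.72 without model-labelled rat 2), and Mcpt8, a basophil protease (1.86 ± 0.73, with values from 5.11 to 7.18 against 3.70 to 4.90). Epx, the eosinophil peroxidase, lay at 0.04 ± 0.50 (from -0.37 to 0.41 with single spleens left out). Of 22 neutrophil markers 1 was higher, Ctsg (0.74 ± 0.28), and 1 lower, the chemokine receptor Cxcr2 (-0.75 ± 0.26, and -0.46 without model-labelled rat 2), with a median of 0.05 (from 0.04 to 0.24 with single spleens left out). Their differences were positive in 13 and negative in 9.

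Innate signalling genes were mostly lower. In the list of NF-kappaB and Toll-like receptor genes 8 of 17 had a p under 0.05, all lower (median -0.32, and -0.18 without rat 4). Nfkb1, the p105 precursor subunit, read 8.20, 7.88 and 8.55 against 8.70, 8.71 and 8.92 (-0.57 ± 0.17), and Myd88, the adaptor of Toll-like receptors, 7.95, 7.91 and 8.01 against 8.27, 8.39 and 8.45 (-0.41 ± 0.13). Neither overlapped. Of 17 STAT3 and SOCS feedback genes 8 were lower (median -0.38), with Osmr, the oncostatin M receptor, at 6.39, 7.14 and 7.07 against 7.56, 7.57 and 7.79 (-0.77 ± 0.19) and Stat3 itself at 8.60, 8.60 and 8.85 against 9.13, 9.05 and 9.49 (-0.54 ± 0.14). The 3 vehicle-labelled STAT3 list scores, -0.16, -0.13 and -0.06, were below the model-labelled ones, 0.13, 0.10 and 0.28, with sham from -0.11 to 0.05.

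Among soluble mediators the picture was split. Of 19 inflammatory cytokines Tnf and Csf1 (-0.50 ± 0.19) were lower and Il1a was higher (0.49 ± 0.17) at p under 0.05, with a median of -0.04 (from -0.08 to 0.06 with single spleens left out). Of 28 chemokine genes 4 were lower, including Ccl19 and Cxcl6 (-0.90 ± 0.19, adjusted p = 0.181), and Ppbp was higher (median -0.05, and from -0.15 to 0.03). Of 16 complement genes 8 were lower and 1 higher (median -0.32). Serping1, the C1 inhibitor, lay at 8.93, 8.79 and 9.17 against 9.64, 9.37 and 10.27 (-0.80 ± 0.20), and the decay-accelerating factor gene Cd55 at 7.95, 8.30 and 7.91 against 7.46, 7.40 and 7.19 (0.70 ± 0.18). The groups did not overlap in either. Of 32 interferon-stimulated genes 4 were lower and 1 higher, with a median of -0.18 (from -0.33 to -0.07 with single spleens left out), and Irf1 and Stat2 lay at -0.64 ± 0.18 and -0.55 ± 0.15.

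Of 19 heat shock chaperones 1 was higher, Hsp90aa1, at 11.63, 11.47 and 11.67 against 10.99, 10.99 and 11.54 (0.42 ± 0.15), and 2 lower, Cryab (-0.54 ± 0.17) and Hspb8 (-0.32 ± 0.15, and -0.20 without model-labelled rat 3). The list median was 0.02 (from -0.13 to 0.22 with single spleens left out), while each label lay above sham by a median of 0.84 (vehicle-labelled) and 0.78 (model-labelled), comparisons that share the sham spleens. Of 22 endoplasmic reticulum stress genes 17 had a negative difference, 4 were lower and 1 higher at p under 0.05, and the median was -0.16 (-0.09 without model-labelled rat 3), with Hspa5, the main chaperone of that compartment, at 11.16, 11.32 and 11.42 against 11.50, 11.65 and 11.68, and sham at 10.67, 10.73 and 10.71 (-0.31 ± 0.12). Both labels lay above sham in this gene.

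Of 21 hypoxia response genes 7 were lower and 0 higher, with a median of -0.25 (-0.16 without model-labelled rat 3). Ndrg1, a stress gene of that response, read 7.91, 7.74 and 7.53 against 8.24, 8.36 and 8.65 (-0.69 ± 0.15, adjusted p = 0.181), and Hk2, a hexokinase of glycolysis, 6.43, 6.19 and 6.51 against 6.68, 6.99 and 6.92 (-0.49 ± 0.15). Of 22 glucocorticoid-induced genes 5 were lower, Txnip, Angptl4 (-0.54 ± 0.17) and Ddit4 (-0.45 ± 0.16) leading, with a median of -0.12 (-0.04 without rat 4). Of 15 clock genes 5 were lower and none higher, with a median of -0.13 (-0.24 without rat 5 and -0.21 without model-labelled rat 1), among them the repressors Nr1d1 (-0.72 ± 0.22, and -0.40 without model-labelled rat 3) and Nr1d2 (-0.67 ± 0.18). Of 15 lipid and cholesterol synthesis genes 6 were lower (median -0.27, and -0.49 without rat 5 and -0.15 without rat 4), with Sc5d, of sterol synthesis, at 5.74, 5.80 and 6.37 against 6.61, 6.76 and 6.83 (-0.76 ± 0.16) and the cholesterol exporter Abcg1 at 7.51, 7.43 and 7.55 against 8.13, 8.31 and 8.22 (-0.72 ± 0.16). No value of these last 2 genes overlapped between the groups.

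Regulators of growth and death and neural receptors lay on both sides of the share over all genes, 9.95% lower at p under 0.05. Lower genes made up 16% of the immediate early list and 20% of the adrenergic and cholinergic receptor list. They made up 6.7% of the Bcl2 family, 5.9% of the p53 and growth arrest genes and 0% of the Nrf2 targets. Of 25 immediate early genes 4 were lower, Klf2, a quiescence factor of lymphocytes and endothelium, at -0.64 ± 0.20 (-0.37 without rat 4), and the median was -0.16 (-0.10 without rat 4 and -0.07 without model-labelled rat 3). Bcl2, the survival factor, lay at -0.72 ± 0.22 as the only 1 of its 15 family members under 0.05, and of 17 p53 and growth arrest genes Tp53inp1 was the only 1 (-0.31 ± 0.14, and -0.18 without model-labelled rat 3). Of 10 adrenergic and cholinergic receptor genes 2 were lower, the receptor-silencing arrestin Arrb2 (-0.54 ± 0.13) and Adra2a (-0.28 ± 0.12). Of 13 Nrf2 antioxidant targets 0 had a p under 0.05, and of the cold-inducible pair Rbm3 was higher (0.47 ± 0.21, and 0.20 without rat 4 and 0.70 without rat 5) and Cirbp lay at -0.26 ± 0.14 (-0.15 without rat 5).

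Housekeeping lists had medians near 0. Of all genes 2.96% were higher at p under 0.05, and the respiratory chain and proteasome lists held a larger share. Medians were 0.08 for 38 respiratory chain genes, 5 of them higher at p under 0.05, 0.08 for 42 cytosolic ribosomal protein genes, 1 higher, and -0.01 for 29 proteasome subunits, 4 higher and 1 lower. With single spleens left out these medians ran from 0.04 to 0.18, from 0.03 to 0.15 and from -0.02 to 0.08. Cox7b, Ndufa6 (0.55 ± 0.17) and Ndufv2 (0.46 ± 0.14) led the first of these lists, and Psmc6 (0.58 ± 0.16) the last.

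Genes of organs next to the spleen were higher in some vehicle-labelled samples. Of 24 exocrine pancreas markers 23 had a positive difference and 8 a p under 0.05, all higher (median 0.26). Amy2a3, pancreatic amylase, read 6.67, 3.12 and 4.62 in vehicle-labelled rats 2, 4 and 5, 2.74 to 3.06 in model-labelled and 2.90 to 2.92 in sham spleens (1.89 ± 0.60, and 0.96 without rat 2). Ctrb1, chymotrypsinogen, read 6.99, 6.74 and 6.05 against 5.99, 5.60 and 5.78 (0.80 ± 0.25). List scores were 0.61 in rat 2, 0.06 and 0.09 in rats 4 and 5, and -0.21 to 0.02 in the other 6 spleens, so rat 2 held most of the pancreatic signal, and the median without it was 0.11.

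Fat cell genes varied as well. Car3, the carbonic anhydrase of adipocytes, read 6.26, 6.38 and 5.68 in vehicle-labelled, 4.51, 4.46 and 4.11 in model-labelled and 3.80, 3.84 and 5.93 in sham spleens (1.75 ± 0.44, adjusted p = 0.183). It was the gene that passed in the fit of the 6 spleens (adjusted p = 0.0354), and it passed without sham rat 5 (adjusted p = 0.016). Adipoq, the hormone adiponectin, read 4.72, 4.72 and 4.02 against 3.88, 3.38 and 3.63, with sham rat 5 at 4.82 (0.86 ± 0.33). The 14 adipose and mesothelial markers had 3 higher and 1 lower, Lpl (-0.48 ± 0.18), and a median of 0.10 (from -0.00083 without rat 2 to 0.31 without rat 5, with 0.0083 without rat 4 and 0.025 and 0.062 without model-labelled rats 1 and 2, so that no direction is read). Of 12 liver and kidney markers 1 was higher, Alb (0.45 ± 0.16), with a median of 0.03 (from -0.04 to 0.17 with single spleens left out). The part of adjacent tissue in the other differences was not tested.

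Without vehicle-labelled rat 5 the comparison set 2 spleens against 3, with the spread shared over the 8 remaining arrays. Of the 24 named genes 21 passed in that fit, the others being Ppbp, Mcpt9 and Cox7b. The 24 were chosen for this same difference on arrays that include these 8, so the count is a description. Of the list genes named above, Siglec1, Spic, Tcf4, RT1-DMb, Nfkb1, Klf2, Cxcl6, Sc5d and Ctrb1 passed there too. The 317 genes were chosen by this fit for a gap between rats 2 and 4 and the model-labelled spleens, so the place of rat 5 in them is a description: its value lay closer to the model-labelled mean than to that of rats 2 and 4 in 243 (76.7%), against 65% of all genes tested. Klf1, the master transcription factor of red cells, read 9.39 and 9.75 in rats 2 and 4, 7.10 in rat 5, 7.88, 8.24 and 7.64 in model-labelled and 8.52, 9.12 and 9.15 in sham spleens, a difference of 1.65 ± 0.22 without rat 5 (adjusted p = 0.0168) and 0.83 with it. With rat 5 kept, the Klf1 difference was 0.505 without rat 2 and 0.325 without rat 4, and neither passed. Ccne2, a cyclin that starts DNA replication, read 8.56 and 8.32 in rats 2 and 4, 6.33 in rat 5 and 6.26, 6.91 and 6.26 in model-labelled spleens, a difference of 1.96 ± 0.24 without rat 5 (adjusted p = 0.00973) and 1.26 with it. The Ccne2 difference was 0.85 without rat 2 and 0.97 without rat 4, and neither passed. Rat 5 lay at or below the model-labelled level in both genes.

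By list, that fit called 6 of 24 erythroid markers (Klf1, Tal1, Ahsp, Car2, Rhag and Car1) and 3 of 10 haem synthesis enzymes (Alad, Abcb10 and Cpox), all higher, and 5 of 36 proliferation genes, also higher (Ccne2, Tyms, Ccne1, Cdc20 and Nusap1). It called 5 of 16 B cell markers (Cd37, Cd22, Cr2, Blk and Cxcr5), 4 of 24 endothelial and stromal markers (Ccl19, Eng, Kdr and Cdh5) and 3 of 15 clock genes (Bhlhe41, Bhlhe40 and Nr1d2), all lower. Over all genes it called 0.627% as higher and 1.56% as lower. Cd22, a B cell inhibitory receptor, shows the arrangement: 8.21 and 8.03 in rats 2 and 4, 9.13 in rat 5 and 9.08, 8.80 and 9.17 in model-labelled spleens. No member of the erythroid, haem synthesis or proliferation lists passed in the fit of all 27 arrays with rat 5 included. Outside these lists, the DNA synthesis and genome upkeep genes Terc (adjusted p = 0.0203), Dtymk (0.0205) and Gen1 (0.0225) did pass in that fit, as higher. Of the list genes, that fit called Siglec1 (adjusted p = 0.00875), Cd37 and Ccl19 (0.0203), Txnip (0.0173), Abcg1 (0.0192), Cxcl6 (0.0287), Sc5d (0.0363), Arrb2 (0.0393) and Eng (0.0414) as lower, and Mcpt9 (0.0271), Ppbp (0.0414), Amy2a3 and Cidec (0.0419) as higher.

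The same genes were then set beside brain and white blood cells of the same rats, in the fit of 27 arrays. Of the 12 higher genes 10 had the same sign in white blood cells and 9 in brain, where 50.9% and 45.5% of all genes higher in spleen did. Of the 12 lower genes the counts were 9 and 10, against 61.5% and 49.7%. Serpinb10 differed by 1.13 ± 0.24 in white blood cells and by -0.63 ± 0.24 in brain, so that its sign in spleen was shared with blood. Tgfb3 lay at 0.06 ± 0.26 in white blood cells and 0.25 ± 0.26 in brain, against -1.87 in spleen. Fam111a was higher in all 3 tissues, by 1.01 in spleen, 1.24 ± 0.27 in white blood cells and 0.54 ± 0.27 in brain.

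**Figure D5:**
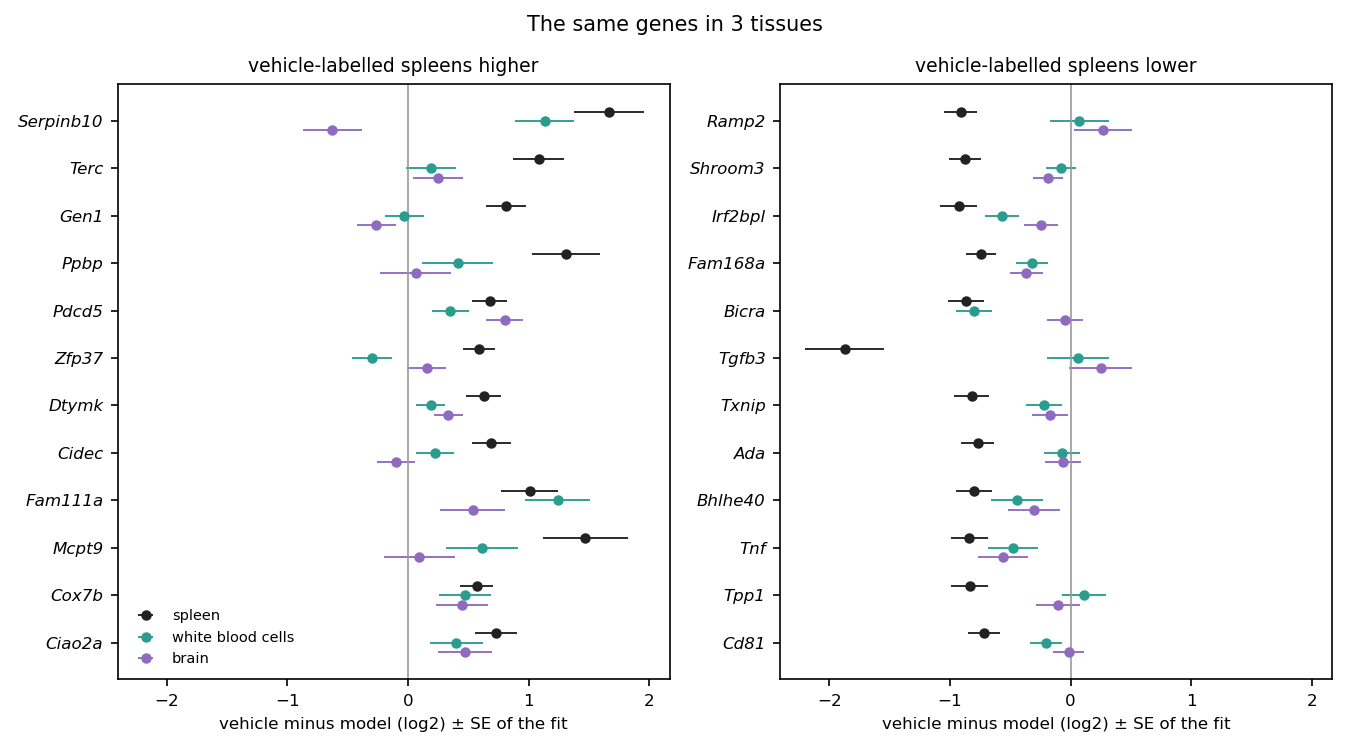
Vehicle-labelled minus model-labelled difference (log2, horizontal axis) of the 24 named genes in spleen (black, 9-array fit), white blood cells (green) and brain (purple, both from the 27-array fit), with bars of 1 standard error. Tgfb3 lies at -1.87 in spleen and near 0 in the other tissues, and Serpinb10 is positive in spleen and blood and negative in brain.

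Whether the difference between labels itself differed by tissue was tested with an interaction term in the fit of 27 arrays. Against brain 87 genes passed (0.6% of genes), 29 with a more positive and 58 with a more negative difference in spleen, and the count was 160 with the rat as a block. Named spleen genes among them were Serpinb10 (difference between tissues 2.30 ± 0.35, adjusted p = 0.00228), Gen1 (1.08 ± 0.23, adjusted p = 0.0299) and Tgfb3 (-2.12 ± 0.37, adjusted p = 0.00819). Npas4 and Cd55, singled out after their values were seen, had still smaller p. Npas4, a transcription factor of active neurons, lay at 0.13 ± 0.17 in spleen and -2.75 ± 0.27 in brain. Cd55 was opposite in the 2 tissues, at 0.70 in spleen and -1.47 ± 0.22 in brain (adjusted p = 0.0019). The count was 622 without the spleen of vehicle-labelled rat 5, 17 without the brain of model-labelled rat 1, 19 without the spleen of vehicle-labelled rat 2, 25 and 27 without the spleens of model-labelled rats 3 and 2 and 28 without that of vehicle-labelled rat 4. It was 56 without the brain of vehicle-labelled rat 2, and 48 to 52 without the white blood cells of any 1 operated rat but vehicle-labelled rat 5.

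Against white blood cells 4 genes passed (0.0276%), all with a more negative difference in spleen, and 8 with the rat as a block. They were Lcn2, a neutrophil granule protein that binds siderophores, Pglyrp1, a peptidoglycan-binding protein of neutrophil granules, Il7, the lymphocyte growth factor, and Creg1, a secreted lysosomal glycoprotein, and all 4 were singled out after their values were seen. Lcn2 read 7.58, 9.04 and 8.83 in vehicle-labelled and 9.16, 7.99 and 9.70 in model-labelled spleens, which overlapped (-0.47 ± 0.44, and from -0.95 to -0.02 with single spleens left out), while its difference in white blood cells was 3.21 ± 0.40. The difference between tissues was -3.67 ± 0.56 (adjusted p = 0.015). Il7 lay at -0.51 ± 0.16 in spleen and 1.05 ± 0.19 in blood (adjusted p = 0.0471). Leaving out single arrays of the operated rats gave between 0 and 14 genes, 0 without the spleen of vehicle-labelled rat 2, model-labelled rat 1 or model-labelled rat 3 or without the blood of model-labelled rat 1, 10 without the spleen of vehicle-labelled rat 4, and 14 without the blood of vehicle-labelled rat 5. The other arrays left 1 or 2 genes, except the spleens of vehicle-labelled rat 5 and model-labelled rat 2, which left 3.

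Against sham, with which the comparisons share arrays, limma called 7 genes for vehicle-labelled and 6 for model-labelled spleens (0.0483% and 0.0414%). Tgfb3 lay at -0.47 ± 0.33 for vehicle-labelled and 1.40 ± 0.33 for model-labelled minus sham, Ramp2 at -0.24 ± 0.14 and 0.67 ± 0.14, and Tnf at -0.81 ± 0.15 and 0.03 ± 0.15. For Tgfb3 and Ramp2 the model-labelled mean was the farther from sham, and for Tnf the vehicle-labelled mean. None of these 6 values passed (adjusted p from 0.134 to 0.975).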

How the data were processed

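Extracted RNA was amplified, labelled and hybridized to Affymetrix rat arrays, per the labels' protocols. The authors processed the intensities with RMA, per the submitters' processing notes, in a version not given in the sources used here. The deposited values are read as log2 intensities, since they ran from 1.53 to 13.49; no label states the scale. Of 27596 probes, 15310 had 1 gene symbol and were kept, 323 had several and 11963 none. Entrez identifiers of 15279 probes matched a RefSeq gene table, which changed 0 symbols. For the 527 genes with several probes the brightest by mean over 27 arrays stood for the gene, leaving 14506 genes. Groups and rat numbers come from the sample titles, and each group and number is taken as 1 animal.

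The 9 spleen arrays entered limma 3.58.1 (R 4.3.3; lmFit and eBayes, 2-sided, 1 mean for each group, 6 residual degrees of freedom), with Benjamini-Hochberg adjustment over all genes. Tissue differences came from a 27-array fit of 9 group means. A rat's number links its tissues within a group by the titles, and duplicateCorrelation gave a consensus of 0.0957 for rats. The members, the gene lists and the tests were chosen with earlier results of these data known. Of 881 list symbols 770 were measured. Named genes are the 12 each way with the smallest p among genes whose groups do not overlap, leaving out predicted genes, since fewer than 12 passed. Genes named in a list were drawn from the 3 members with the smallest p and, for cell types, the first 3 measured. Not all of these are named, and other genes were added after their values were seen. List counts without vehicle-labelled rat 5 and in the 27-array fit were also added then. In data simulated for this comparison, with noise drawn independently for each gene and array, the test was checked for direction and size. Such noise holds no deviation shared by the genes of a spleen, so the check cannot speak to counts that turn on single spleens. Precision is limited by having 3 arrays in a group. Alternatives are in the closing section.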

Additional observations from a re-analysis of the deposited data

Results flagged for a closer look

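In the fit of 27 arrays, 87 genes had a vehicle-labelled minus model-labelled difference that itself differed between spleen and brain by an interaction test in limma (adjusted p under 0.05). On the log2 scale, spleen minus brain, the named ones were Npas4 at 2.88, Inhba at 2.62, Egr2 at 2.37, Serpinb10 at 2.30, Cd55 at 2.17, Gprc5a at 1.46, Gen1 at 1.08 and Tgfb3 at -2.12. In spleen alone Npas4, Inhba, Egr2 and Gprc5a lay at 0.13, 0.20, -0.23 and -0.18, and in brain at -2.75, -2.42, -2.59 and -1.64. None of these 4 spleen differences had an unadjusted p under 0.05 in limma (p from 0.166 to 0.446). Serpinb10 and Cd55 had opposite signs in the tissues, and the differences of Gen1 and Tgfb3 in brain were -0.26 and 0.25. Npas4, Inhba, Egr2, Cd55 and Gprc5a were singled out after their values were seen.

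Between spleen and white blood cells 4 genes differed by the same test: Lcn2 at -3.67, Pglyrp1 at -2.37, Creg1 at -2.03 and Il7 at -1.56. Their differences in white blood cells were 3.21, 1.88, 2.03 and 1.05, and in spleen -0.47, -0.49, -0.01 and -0.51.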

How the results depend on the processing

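The count of genes for spleen was 0 in limma with quantile normalization, median centring, a filter at the 40th percentile, the mean of all probes, all probes, a trend with a robust prior, array weights, an adjusted p under 0.10 or a fold of at least 2. It was 1 with 6 arrays, 107 with 27 arrays, and from 0 to 317 with single spleens left out. The 24 named genes kept their sign wherever they were measured. Leaving out a spleen could not have turned it, since their choice required groups without overlap. The share of lower genes among those with p under 0.05 was 77.1%, and 55.1% with array weights, which gave vehicle-labelled rats 5 and 4 the lowest weights (0.35 and 0.55), 68.3% with quantile normalization, 62.8% over all probes and 61.7% without rat 5. The share rose to 83.6% under the filter, 84.2% without vehicle-labelled rat 2 and 85.3% without model-labelled rat 1. The median of all genes was -0.10 under the filter. Tissue differences numbered 87 against brain and 4 against white blood cells, 160 and 8 with the rat as a replicate block, 84 and 1 with quantile normalization within tissue, and 17 to 622 and 0 to 14 with single arrays left out. No paired analysis was possible for vehicle-labelled against model-labelled spleen because the groups share only the number 2, which names different rats. Of list genes far from the threshold, some turned sign: Apoa2 (0.04) lay at -0.029 and 1810009J06Rikl (0.05) at -0.020 with quantile normalization, and Epx (0.04) at -0.45 and Ms4a1 (-0.07) at 0.085 with array weights. With single arrays left out, ranges were -0.04 to 0.17 for Apoa2, -0.072 to 0.15 for 1810009J06Rikl, -0.37 to 0.41 for Epx, -0.27 to 0.25 for Ms4a1, -0.94 to 0.58 for Ngp, -0.043 to 0.15 for Hbb, -0.29 to 0.48 for Alas2, -0.01 to 0.19 for Siglec5, -0.46 to 0.14 for Jchain, -0.34 to 0.038 for Tagln and -0.20 to 0.0067 for Nkg7. Among tissue differences, Pdcd5 against brain (-0.12) lay at 0.0013 with quantile normalization, and leaving out arrays gave -0.017 to 0.25 for Cox7b against brain and, against white blood cells, -0.48 to 0.085 for Fam111a, -0.013 to 0.26 for Cox7b and -0.18 to 0.035 for Bicra. The cause was not tested. With 3 arrays a group and a median standard error of 0.15, no difference passed with all 9 spleens.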

Other observations

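A pair of gene groups not described above were put together after the values had been seen, so their counts describe these spleens and support nothing further. Of 49 measured lysosomal genes 23 had an unadjusted p under 0.05 and a lower value in vehicle-labelled spleens, 0 a higher one, and the median difference was -0.32 (all genes: 9.95% lower, median -0.02). Psap, which encodes the saposin precursor, read 10.99, 11.11 and 11.10 in vehicle-labelled and 11.48, 11.63 and 11.64 in model-labelled spleens (-0.52 ± 0.12, adjusted p = 0.181 in limma). The membrane protein gene Scarb2 read 8.15, 8.03 and 8.34 against 8.73, 8.79 and 8.73 (-0.58 ± 0.13). Neither gene overlapped between the groups. In 25 of the 49 genes all vehicle-labelled spleens were below all model-labelled ones (11.2% over all genes). List scores were -0.20, -0.16 and -0.07 in vehicle-labelled rats 2, 4 and 5, and 0.05, 0.16 and 0.29 in model-labelled rats 1, 2 and 3. Sham spleens scored between -0.08 and 0.05. Without vehicle-labelled rat 5, 3 of the 49 passed, all lower (all genes: 1.56% lower, 0.627% higher).

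Of 49 measured genes of the early secretory pathway, which folds, glycosylates and ships new proteins, 16 were lower and 1 higher at p under 0.05. Their median was -0.17 (all genes: 9.95% lower, 2.96% higher, median -0.02). Copa, a coat protein of vesicles that return to the endoplasmic reticulum, read 8.11, 8.20 and 8.49 against 8.83, 8.92 and 9.13 (-0.69 ± 0.14, adjusted p = 0.167). Sec61a1, the protein-conducting channel, read 9.11, 9.16 and 9.17 against 9.65, 9.82 and 9.96 (-0.66 ± 0.13, adjusted p = 0.167). Another subunit of that channel, Sec61g, lay the other way, at 10.23, 10.10 and 9.40 against 9.30, 9.33 and 8.89 (0.74 ± 0.24). The groups did not overlap in any of these 3 genes. Without vehicle-labelled rat 5, 6 of the 49 passed as lower and 1, Sec61g, as higher (all genes: 1.56% lower, 0.627% higher).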
